A study of Mus musculus with 9 samples.

Results

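Nuclear factor kappa B (NF-kB) genes were described in tumour-associated macrophages as a set of 33 genes chosen by name: the subunits of the factor, its inhibitors, the proteins that carry or end its signal, and a number of its targets. The 33 genes and the other gene lists below were chosen with earlier results of these data known, so their shares beside all genes are descriptions. All 33 were found by symbol among the 18042 genes measured, and all 33 passed the filter on low counts. The cells came from subcutaneous tumours of MC38, a mouse colon carcinoma line, grown from 1000000 cells in wild-type female C57BL/6 mice aged 6 to 8 weeks. On day 9 the mice were divided into groups, and the tumours were then injected with IN@OMVs or with OMVs, each at 625 µg of vesicle protein per kg (12.5 µg per mouse), or with the same volume of solvent (Control, whose label also names PBS). OMVs usually stands for the outer membrane vesicles that bacteria shed, and the labels do not spell out IN. Cells positive for CD11b and F4/80 were sorted, and each group gave 3 libraries. The labels call them biological replicates and do not give whether 1 library is 1 mouse or a pool, so p-values measure the spread between these libraries.

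NF-kB dimers wait in the cytoplasm, held there by IkB proteins, until bacterial products or cytokines switch on the IkB kinases. The inhibitor is then degraded and the dimers enter the nucleus. Many of the genes they switch on encode brakes of the same pathway, such as Nfkbia and Tnfaip3, so their transcripts rise while the pathway is active. In macrophages the pathway drives the response to bacterial lipopolysaccharide and lipoproteins.

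The libraries held 16813230 to 17288322 expected counts each. IN@OMVs 1 stood apart from IN@OMVs 2 and 3. The chi-square of its counts against theirs, divided by the degrees of freedom, was 42.0 and 34.7. It was 3.69 between IN@OMVs 2 and 3, where counting noise alone gives about 1. To a lesser degree OMVs 3 differed from OMVs 1 and 2, with 14.2 and 10.2, against 5.62 between OMVs 1 and 2. Control 1 had 6.85 and 7.39 against Control 2 and 3, with 2.08 between Control 2 and 3. Summed over 10 macrophage markers, levels were 19558, 14222 and 13900 CPM in IN@OMVs 1, 2 and 3 (CPM, counts scaled to a library of 1000000). They were 14090 to 18528 CPM in OMVs and 14369 to 15445 CPM in Control. Fibroblast markers (8 genes) summed to 1445, 4622 and 4611 CPM in IN@OMVs 1, 2 and 3. They summed to 3407 to 4466 CPM in OMVs and 4167 to 5805 CPM in Control. T cell markers (13 genes) were highest in the libraries numbered 1, at 309 CPM in IN@OMVs 1, 271 CPM in OMVs 1 and 307 CPM in Control 1, and 89.5 to 173 CPM in the other 6. Neutrophil markers (10 genes, 0 of them at 0 throughout a group) summed to 129.5 to 197 CPM in IN@OMVs, 564 to 749 CPM in OMVs and 789 to 1159 CPM in Control. Of these 10 markers, 9 fell in IN@OMVs against OMVs and 9 against Control, beside 1.75% and 3.24% of all genes. In OMVs against Control 0 passed the threshold, beside 0.42% of all genes. Of the macrophage markers and of the fibroblast markers 0 passed in any comparison. The median log2 fold change of the fibroblast markers was -0.33 in IN@OMVs against OMVs and -0.67 against Control. Among markers of other cell types, at most 2 genes of a list passed in a comparison. Over all genes 3.32% were higher and 3.24% lower in IN@OMVs against Control, and 1.1% and 1.75% against OMVs. In IN@OMVs against Control 1 of 13 T cell markers (Il7r), 2 of 8 of conventional dendritic cells (Clec9a and Batf3) and 1 of 6 tested of endothelium (Kdr) rose. Of mature dendritic cells 1 of 11 (Il4i1) fell, and of epithelium 1 of 2 tested (Cdh1). Against OMVs, 1 of 8 conventional (Batf3) and 2 of 11 mature dendritic cell markers (Ccl22 and Ccl17) rose. Of the 6 endothelial markers 1 rose (Kdr) and 1 fell (Pecam1). The rest of these lists did not pass. The medians of the mature dendritic and endothelial lists were below 0 in both comparisons (-0.10 and -0.38 against OMVs, -0.08 and -0.22 against Control). Those of the conventional dendritic and T cell lists were above 0 in both (0.59 and 0.20 against OMVs, 0.29 and 0.14 against Control). In bulk RNA, fewer cells of a type and less RNA per cell cannot be told apart.

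**Figure D1:**
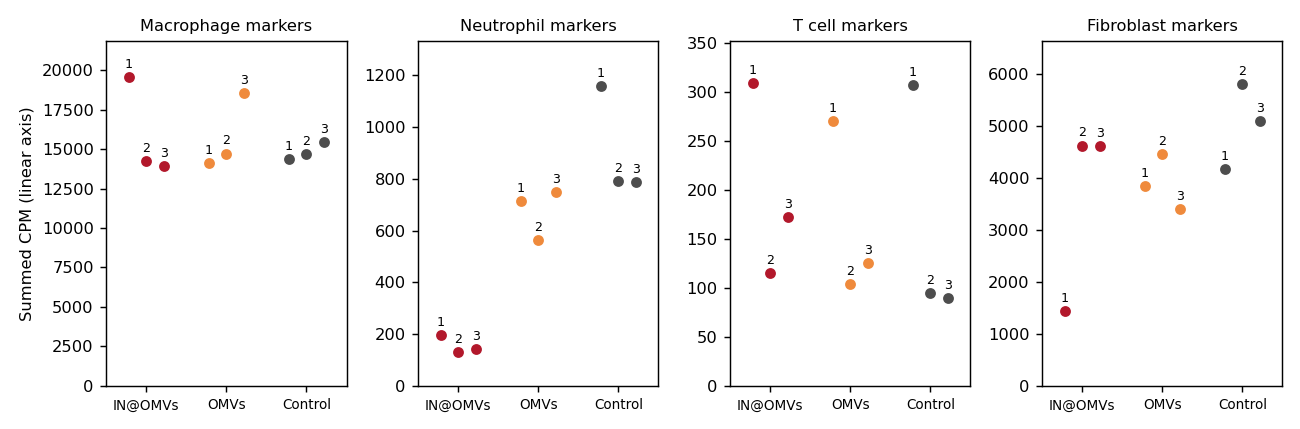
Summed CPM of macrophage, neutrophil, T cell and fibroblast marker genes in each library (1 point each, numbered by replicate), for IN@OMVs, OMVs and Control. Neutrophil markers lie at 129.5 to 197 CPM in all 3 IN@OMVs libraries and at 564 CPM or more in the other 6, and IN@OMVs 1 has the lowest fibroblast level, 1445 CPM.

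Several feedback inhibitors, brakes and stress targets of NF-kB fell in the bulk RNA of sorted cells from IN@OMVs tumours, against those from OMVs tumours. Of the 33 genes, 10 were lower and 0 higher in IN@OMVs than in OMVs at a Benjamini-Hochberg adjusted p under 0.05 (edgeR, over all 13090 genes tested), where 1.75% of all genes were lower and 1.1% higher. The 10 were Nfkb2, Nfkbia, Bcl3, Tnfaip3, Tnip1, Zc3h12a, Traf1, Ikbke, Ier3 and Sod2. By role they were 1 of 5 subunits, 1 of 3 classical inhibitors, 1 of 3 nuclear inhibitors, 3 of 6 brakes, 2 of 7 transducers, 2 of 5 survival targets and 0 of 4 other targets. The median log2 fold change of the 33 was -0.27, beside a median of -0.0035 over all genes. Against Control, 5 genes fell in IN@OMVs (Nfkbia, Nfkbiz, Tnfaip3, Ikbke and Sod2; 3.24% of all genes were lower) and 1 rose (Bcl2l1; 3.32% of all genes were higher), with a median of -0.07. In OMVs against Control, 0 of the 33 passed in edgeR, as in limma-voom, while DESeq2 called 1 and 12 had an unadjusted p under 0.05 in edgeR. There 0.42% of all genes passed, 0.298% higher and 0.122% lower, 8.44% of all genes had an unadjusted p under 0.05, and the median of the 33 was 0.15. The comparisons share libraries, so their counts are not independent of each other.

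These counts moved with single libraries, as did those over all genes. The 10 genes called between IN@OMVs and OMVs (373 of all genes, or 2.85%, in either direction) became 17 without IN@OMVs 1, 4 without IN@OMVs 3, 6 without OMVs 1, and 3 without OMVs 2 or without OMVs 3. In the same fits 786, 191, 212, 180 and 199 of all genes were called. The 6 called between IN@OMVs and Control (858 of all genes, or 6.55%) became 13 without IN@OMVs 1, 1 without IN@OMVs 2, 0 without IN@OMVs 3, and 3, 1 and 2 without Control 1, 2 and 3, where 1635, 631, 496, 486, 400 and 393 of all genes were called. Without all 3 libraries numbered 1, in which T cell markers were high, 19 of the 33 were lower in IN@OMVs than in OMVs, 12 were lower and 3 higher in IN@OMVs than in Control, and 11 were higher in OMVs than in Control. Over all genes the calls of these fits numbered 844, 1475 and 313 in either direction, against 373, 858 and 55 with all 9 libraries. The genes called with all 9 libraries were all called again in the first 2 of these 3 comparisons.

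**Figure D2:**
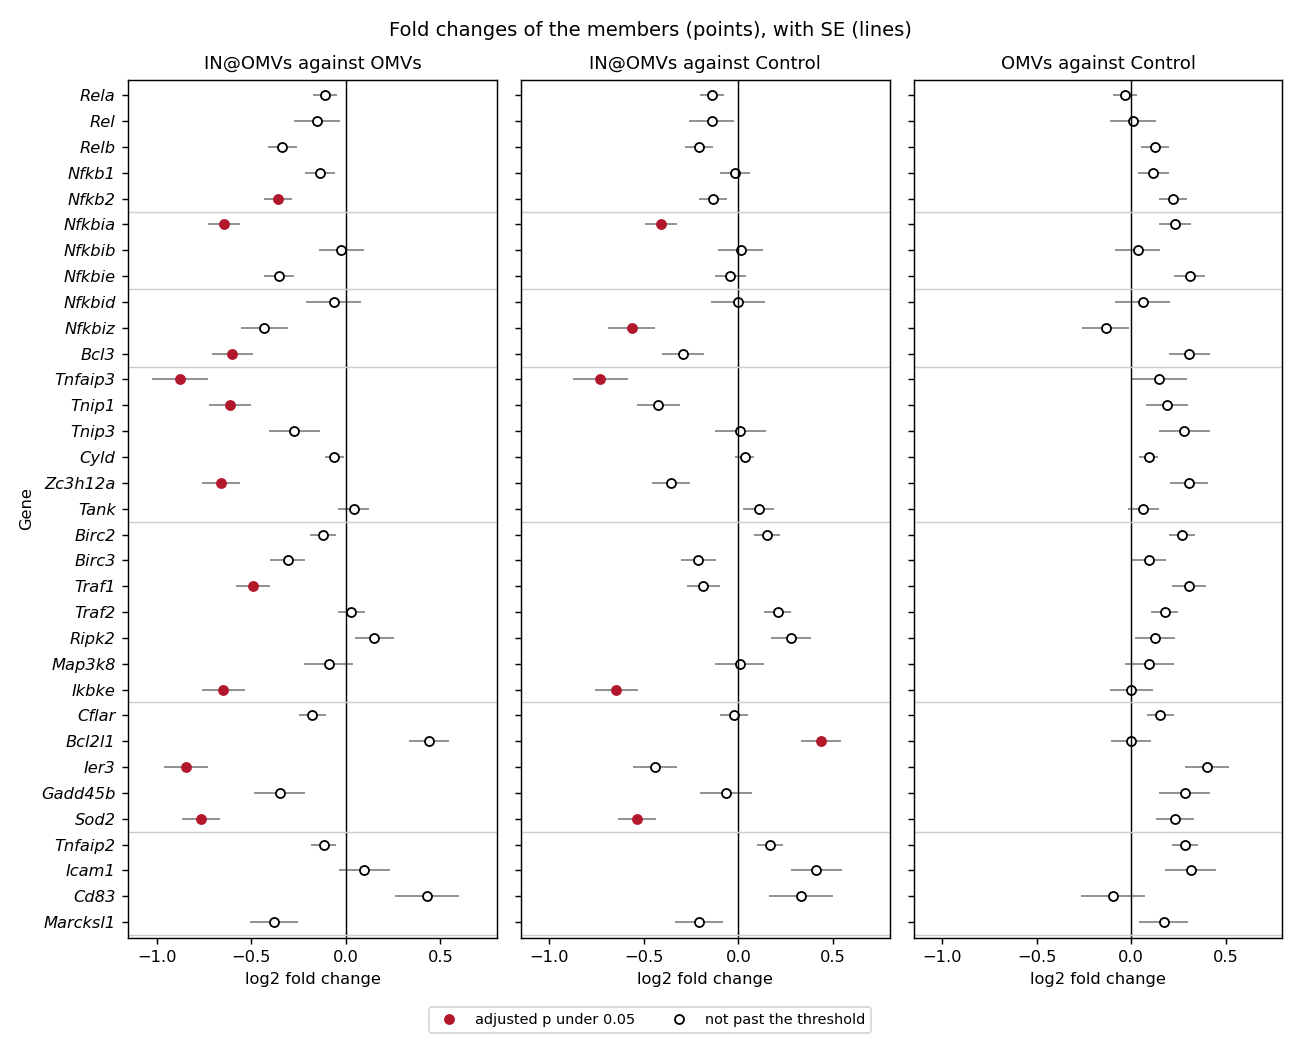
Log2 fold change of each of the 33 genes (points, filled where the adjusted p is under 0.05) with its standard error (lines), for IN@OMVs against OMVs, IN@OMVs against Control and OMVs against Control. In the left panel the 10 filled points all lie below 0, and in the right panel 0 are filled.

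**Figure D3:**
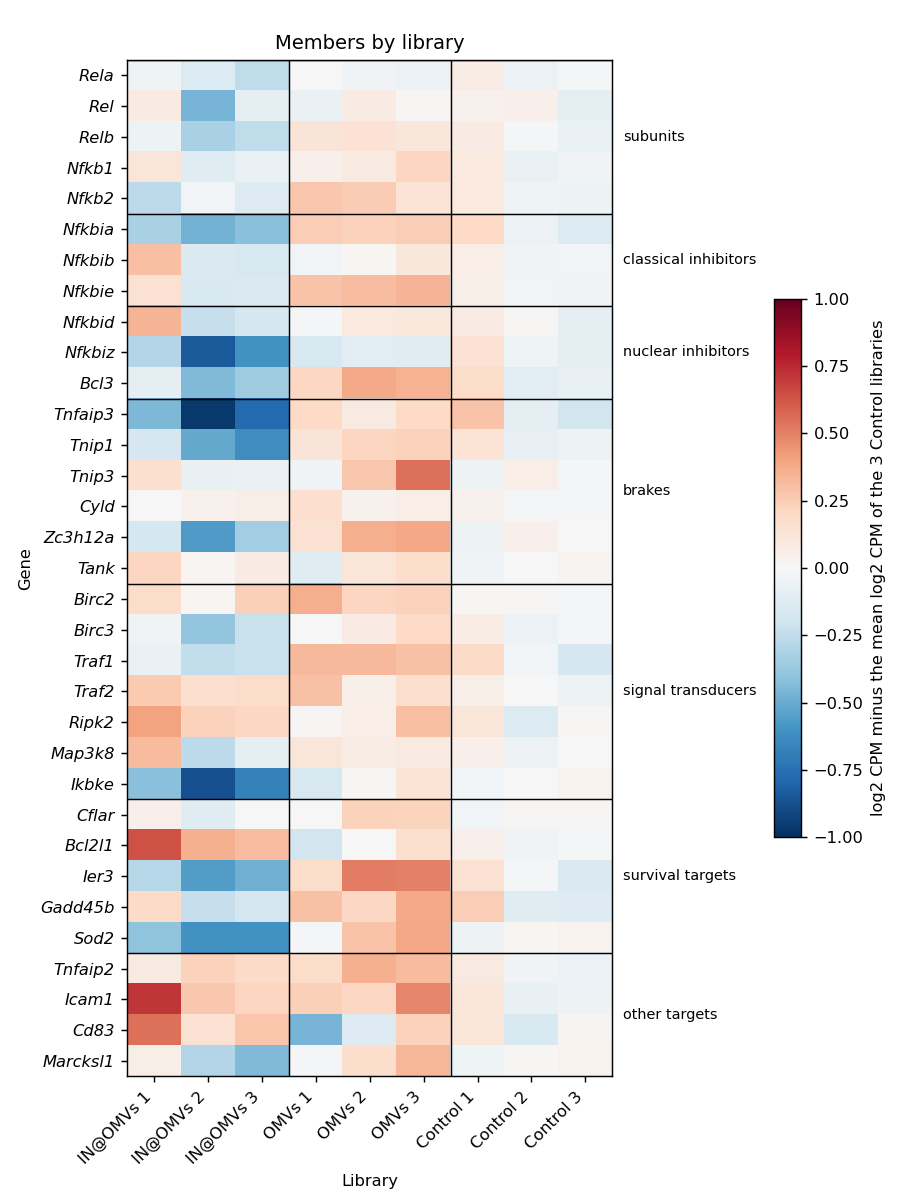
Log2 CPM of each gene in each library, minus its mean log2 CPM over the 3 Control libraries; genes run down by role and libraries across by group. Tnfaip3, Nfkbiz, Ikbke and Sod2 are below Control in all 3 IN@OMVs libraries, and IN@OMVs 1 is the least blue of the 3 for each of these genes.

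Promoter sequence was looked up for the genes in RefSeq's windows of 250 bases before to 50 bases after each annotated start (mouse build GRCm38.p6), and 27 of the 33 had at least 1 window. The kappa B consensus, searched on both strands, is 10 bases long: GGG, a purine, any pair of bases, a pair of pyrimidines and CC. At least 1 match was present in 15 of the 27 genes (55.6%), beside 9.55% of all 27025 genes in the table (8.46% of all windows). Of the 10 genes lower in IN@OMVs than in OMVs, 7 had a match (Nfkb2, Nfkbia, Bcl3, Tnfaip3, Tnip1, Ier3 and Sod2). Of the other 17 genes with a window 8 had one (Bcl2l1, Cyld, Nfkbid, Nfkbie, Rel, Tank, Tnfaip2 and Tnip3). Among these 8, Bcl2l1 rose in IN@OMVs against Control, and the others passed in no comparison of the edgeR fit to all 9 libraries. A match is a description of letters, and no binding was measured. The match in Bcl3 lay 3 to 12 bases into the transcribed side. For 6 of the 7 the upstream bases around the matches are printed, since these genes fell together, followed by Nfkbie and Rel, which hold a match and did not pass the threshold. Capitals mark the matches, overlapping ones joined, and each sequence reads 5′ to 3′ towards the start. Coordinates are chr12:55492648-55492696 (minus strand) for Nfkbia, chr10:19015411-19015555 (minus strand) for Tnfaip3, chr11:54962967-54963018 (minus strand) for Tnip1, chr17:35821601-35821650 (plus strand) for Ier3, chr17:13007736-13007785 (plus strand) for Sod2, chr19:46304678-46304736 (plus strand) for the first of 3 Nfkb2 starts, chr17:45555574-45555623 (plus strand) for Nfkbie and chr11:23771031-23771081 (minus strand) for Rel.
Nfkbia: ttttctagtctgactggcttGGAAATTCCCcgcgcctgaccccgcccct
Tnfaip3: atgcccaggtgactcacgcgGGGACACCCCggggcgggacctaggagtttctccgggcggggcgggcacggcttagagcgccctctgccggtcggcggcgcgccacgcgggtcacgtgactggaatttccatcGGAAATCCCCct
Tnip1: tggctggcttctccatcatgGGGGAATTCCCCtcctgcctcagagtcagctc
Ier3: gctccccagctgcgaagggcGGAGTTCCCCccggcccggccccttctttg
Sod2: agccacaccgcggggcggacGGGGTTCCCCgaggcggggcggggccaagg
Nfkb2: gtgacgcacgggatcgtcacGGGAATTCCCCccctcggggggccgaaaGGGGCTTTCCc
Nfkbie: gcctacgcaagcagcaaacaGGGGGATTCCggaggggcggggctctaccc
Rel: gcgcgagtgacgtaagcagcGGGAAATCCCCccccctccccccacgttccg
The match nearest to its start lay 29 to 20 bases before it in Nfkbia, 12 to 3 bases in Tnfaip3 and 11 to 2 bases in Nfkb2. In Tnip1 and Nfkb2 a palindromic match read the same on both strands. Windows of Zc3h12a, Traf1 and Ikbke, which also fell, held no such letters.

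Of the 5 subunits, Nfkb2 alone passed in the edgeR fit to all 9 libraries. It encodes the precursor whose processed form pairs with RelB in the non-canonical branch. Nfkb2 stood at 170.4, 200.3 and 186 CPM in IN@OMVs, 246, 243 and 224 CPM in OMVs, against 218, 198 and 197 CPM in Control. Each IN@OMVs library was below each OMVs library, and the IN@OMVs and Control ranges overlapped. The log2 fold change (± SE of the fit) was -0.36 ± 0.07 (adjusted p = 0.0399) in IN@OMVs against OMVs, -0.14 ± 0.07 (adjusted p = 0.364) in IN@OMVs against Control and 0.22 ± 0.07 (adjusted p = 0.385) in OMVs against Control. Its expected counts were fractional in all 9 libraries, which marks reads shared with other sequences. The call ended without IN@OMVs 3, OMVs 1, OMVs 2, OMVs 3, Control 1, Control 2 or Control 3 (adjusted p 0.0507 to 0.162). It also ended with the replicate number as a block.

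Relb, the partner of processed Nfkb2, had 45.3, 37.5 and 39.4 CPM in IN@OMVs, 51.4, 51.9 and 50.8 CPM in OMVs, against 49.7, 46.4 and 44.9 CPM in Control. Its IN@OMVs and OMVs libraries did not overlap, and the change of -0.33 ± 0.07 missed the threshold (adjusted p = 0.0530). Without IN@OMVs 1 its adjusted p was 0.00285. Relb was also called against OMVs with RLE size factors, with DESeq2 and without the 3 libraries numbered 1. In all it was called in 4 of 16 alternative fits, and Nfkb2 in 7 of 16. Nfkb1, the precursor of the usual partner of RelA, had 236, 200.1 and 207 CPM in IN@OMVs, 224, 231 and 252 CPM in OMVs, against 233, 208 and 212 CPM in Control, with all 3 groups overlapping. Its log2 fold change was -0.14 ± 0.08 in IN@OMVs against OMVs (95% interval -0.32 to 0.04).

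Rela and Rel, which carry the activation domains of canonical dimers, passed in none of the 3 comparisons. Rela was at 98.7, 92.3 and 85.3 CPM in IN@OMVs, 102, 98.9 and 97.5 CPM in OMVs, against 107, 97.3 and 101 CPM in Control, a difference of -0.11 ± 0.06 for IN@OMVs against OMVs (95% interval -0.25 to 0.03) and -0.14 ± 0.06 against Control (adjusted p = 0.257). Rel, the subunit c-Rel of lymphoid and myeloid cells, was at 69.8, 48.0 and 62.2 CPM in IN@OMVs, 63.2, 70.0 and 66.5 CPM in OMVs, against 68.2, 68.5 and 61.8 CPM in Control. Its lowest value was in IN@OMVs 2, and its difference was -0.15 ± 0.12 against OMVs (95% interval -0.42 to 0.12).

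The classical inhibitors behaved unequally. Nfkbia, the IkB alpha gene and a textbook NF-kB target, was at 156, 141 and 146 CPM in IN@OMVs, 231, 229 and 231 CPM in OMVs, against 224, 187 and 178 CPM in Control. All IN@OMVs libraries were lower than all others, and the 3 OMVs libraries were higher than all 3 Control libraries. Nfkbia fell by 0.64 on the log2 scale in IN@OMVs against OMVs (SE 0.08, adjusted p = 0.00497), with log2 fold changes between -0.68 and -0.61 and a call in each of the 9 omissions of 1 library. Against Control the change was -0.41 ± 0.08 (adjusted p = 0.0232), and this call ended without IN@OMVs 2, IN@OMVs 3 or Control 2 (adjusted p 0.0597 to 0.0826). In OMVs against Control it was 0.23 ± 0.08 (adjusted p = 0.444).

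Nfkbie, which encodes IkB epsilon, was at 79.2, 64.2 and 64.6 CPM in IN@OMVs, 86.9, 88.2 and 90.4 CPM in OMVs, against 74.4, 69.9 and 69.7 CPM in Control. Its OMVs libraries were above those of both other groups without overlap. The differences were -0.35 ± 0.08 (adjusted p = 0.0587) in IN@OMVs against OMVs and 0.31 ± 0.08 (adjusted p = 0.231) in OMVs against Control, neither past the threshold. With IN@OMVs 1 left out of the shared fit, the adjusted p of Nfkbie was 0.000868 in IN@OMVs against OMVs and 0.0112 in OMVs against Control. No other omission of 1 library gave a call in either of these comparisons. Over the 9 omissions the adjusted p reached 0.192 in IN@OMVs against OMVs and 0.676 in OMVs against Control. Nfkbie was called in 3 of 16 alternative fits in IN@OMVs against OMVs, and in 3 of 16 in OMVs against Control. Nfkbib, the IkB beta gene, was at 35.7, 26.3 and 26.0 CPM in IN@OMVs, 28.5, 29.4 and 31.5 CPM in OMVs, against 30.4, 28.4 and 28.5 CPM in Control, with IN@OMVs 1 the highest. Its 95% interval for IN@OMVs against OMVs was -0.29 to 0.25.

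Nuclear members of the IkB family act on DNA-bound dimers rather than holding them in the cytoplasm. Nfkbiz, whose product licenses secondary response genes such as Il6 and Lcn2, was at 118, 80.4 and 94.8 CPM in IN@OMVs, 129, 133 and 132 CPM in OMVs, against 159, 139.7 and 135 CPM in Control. The 3 groups did not overlap, with IN@OMVs lowest and Control highest. Nfkbiz fell in IN@OMVs against Control, with -0.57 ± 0.12 (adjusted p = 0.0297), while -0.43 ± 0.12 against OMVs missed (adjusted p = 0.137). The call against Control ended without IN@OMVs 2, IN@OMVs 3, OMVs 2, OMVs 3, Control 1, Control 2 or Control 3 (adjusted p 0.0545 to 0.110).

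Bcl3, a nuclear partner of the dimers that lack a transactivation domain, was at 33.4, 26.2 and 27.8 CPM in IN@OMVs, 41.0, 46.1 and 45.3 CPM in OMVs, against 40.3, 33.1 and 33.7 CPM in Control. Its IN@OMVs libraries lay below the OMVs libraries and overlapped with Control. Bcl3 fell against OMVs with -0.60 ± 0.11 (adjusted p = 0.0225), a call that ended without IN@OMVs 2, IN@OMVs 3, OMVs 2, OMVs 3 or Control 3 (adjusted p 0.0504 to 0.100). Nfkbid, the IkB NS gene, averaged 17.8 ± 4.09 CPM in IN@OMVs, 18.6 ± 0.908 CPM in OMVs and 17.9 ± 1.04 CPM in Control (SD, n = 3 each), and passed in none of the 3 comparisons.

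Among the brakes, Tnfaip3 had the largest fold change of the 33 genes in IN@OMVs against OMVs and against Control. It encodes a ubiquitin-editing enzyme that ends signalling from Toll-like and TNF receptors. Tnfaip3 was at 125, 87.4 and 99.7 CPM in IN@OMVs, 195, 181 and 196 CPM in OMVs, against 207, 159 and 150.2 CPM in Control. The IN@OMVs libraries were below all 6 others, and OMVs and Control overlapped through Control 1. The change was -0.88 ± 0.15 (adjusted p = 0.0160) against OMVs and -0.73 ± 0.15 (adjusted p = 0.0214) against Control. The first call ended without IN@OMVs 3, OMVs 1, OMVs 2 or OMVs 3 (adjusted p 0.0530 to 0.0776), and the second without IN@OMVs 2, IN@OMVs 3, Control 1 or Control 2 (adjusted p 0.0539 to 0.0830).

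Tnip1, a ubiquitin-binding partner of the Tnfaip3 product, was at 98.7, 77.4 and 72.1 CPM in IN@OMVs, 121, 129 and 129.8 CPM in OMVs, against 122, 104 and 107 CPM in Control. IN@OMVs lay below both other groups. It fell against OMVs with -0.61 ± 0.11 (adjusted p = 0.0228) and was at -0.42 ± 0.11 (adjusted p = 0.0620) against Control, where the threshold was missed. The call against OMVs ended without IN@OMVs 2, IN@OMVs 3, OMVs 1, OMVs 2, OMVs 3 or Control 3 (adjusted p 0.0554 to 0.0946).

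Zc3h12a encodes an endonuclease that degrades inflammatory mRNAs, Il6 among them. Its levels were 43.5, 33.1 and 38.6 CPM in IN@OMVs, 54.5, 63.4 and 64.3 CPM in OMVs, against 47.4, 50.9 and 49.1 CPM in Control, with no overlap between any pair of groups: OMVs highest, Control between and IN@OMVs lowest. It fell in IN@OMVs against OMVs with -0.66 ± 0.10 (adjusted p = 0.00976), a call that ended without OMVs 2 or OMVs 3 (adjusted p 0.0522 to 0.0525), and had -0.36 ± 0.10 (adjusted p = 0.0794) against Control. In OMVs against Control the value was 0.30 ± 0.10 (adjusted p = 0.366).

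The other brakes passed in none of the 3 comparisons of the edgeR fit to all 9 libraries. Tnip3, a relative of Tnip1, averaged 38.8 ± 3.63 CPM in IN@OMVs, 46.8 ± 9.48 CPM in OMVs and 38.5 ± 1.65 CPM in Control. Cyld, a deubiquitinase that trims the ubiquitin chains of receptor complexes, averaged 103 ± 2.34 CPM in IN@OMVs, 107 ± 4.74 CPM in OMVs and 100.4 ± 2.39 CPM in Control. Tank, an adaptor that restrains Toll-like receptor signalling in mouse macrophages, averaged 87.6 ± 6.27 CPM in IN@OMVs, 85.1 ± 8.99 CPM in OMVs and 81.4 ± 1.76 CPM in Control (SD, n = 3 each). Cyld was the steadiest of the 33 across IN@OMVs libraries, with a coefficient of variation of 2.28%.

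Of the 7 signal transducers, 2 passed in the edgeR fit to all 9 libraries. Ikbke, the gene of the IkB kinase epsilon, an inducible relative of the IkB kinases that also acts in interferon induction, was at 102, 74.0 and 85.3 CPM in IN@OMVs, 122, 137 and 149.5 CPM in OMVs, against 133, 136 and 139.6 CPM in Control. IN@OMVs lay below both other groups, which overlapped. It fell against OMVs with -0.65 ± 0.11 (adjusted p = 0.0194) and against Control with -0.65 ± 0.11 (adjusted p = 0.0110), and stood at 0.00 ± 0.11 in OMVs against Control. The call against OMVs ended without IN@OMVs 3, OMVs 2 or OMVs 3 (adjusted p 0.0787 to 0.0847), and the one against Control without IN@OMVs 3 or Control 3 (adjusted p 0.05003 to 0.0587).

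Traf1, an inducible adaptor of TNF receptors, was at 49.1, 43.4 and 44.1 CPM in IN@OMVs, 64.3, 64.5 and 62.9 CPM in OMVs, against 58.8, 50.6 and 45.8 CPM in Control. The OMVs libraries lay close together and above all 6 others, and IN@OMVs overlapped with Control. Traf1 fell in IN@OMVs against OMVs with -0.49 ± 0.09 (adjusted p = 0.0224), a call that ended without IN@OMVs 2, IN@OMVs 3, OMVs 1, OMVs 2 or OMVs 3 (adjusted p 0.0726 to 0.0953). In OMVs against Control it had 0.30 ± 0.09 (adjusted p = 0.282).

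The remaining transducers stayed short of the threshold in all 3 comparisons of the edgeR fit to all 9 libraries. The ubiquitin ligase gene Birc3 averaged 99.4 ± 12.3 CPM in IN@OMVs, 122.9 ± 8.65 CPM in OMVs and 115 ± 5.35 CPM in Control (SD, n = 3 each), with each IN@OMVs library below each OMVs library. Its paralog Birc2 averaged 57.3 ± 4.44 CPM in IN@OMVs, 62.3 ± 3.56 CPM in OMVs and 51.7 ± 0.638 CPM in Control, with each Control library below the other 6. Traf2, the adaptor that brings both ligases to TNF receptors, averaged 39.9 ± 1.42 CPM in IN@OMVs, 39.1 ± 3.16 CPM in OMVs and 34.6 ± 1.29 CPM in Control, and each Control library was again below the other 6. Ripk2, the kinase of the NOD receptors, averaged 24.8 ± 1.88 CPM in IN@OMVs, 22.3 ± 2.40 CPM in OMVs and 20.4 ± 1.85 CPM in Control. Map3k8, a kinase that links Toll-like receptors to ERK, averaged 31.0 ± 6.65 CPM in IN@OMVs, 32.9 ± 0.57 CPM in OMVs and 30.8 ± 1.098 CPM in Control. Relative to its mean, the widest spread of these 5 genes in IN@OMVs was that of Map3k8, where IN@OMVs 1 had 38.4 CPM and the other libraries 25.7 and 28.8 CPM.

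Of the 5 survival and stress targets, Ier3 and Sod2 fell in IN@OMVs against OMVs, and Sod2 fell and Bcl2l1 rose against Control. Ier3, a stress-inducible immediate early gene, was at 74.1, 61.2 and 64.6 CPM in IN@OMVs, 102, 129 and 128 CPM in OMVs, against 100.4, 89.7 and 81.5 CPM in Control. No pair of groups overlapped: OMVs was highest and IN@OMVs lowest. Ier3 fell in IN@OMVs against OMVs with -0.84 ± 0.12 (adjusted p = 0.00574), and held this call in each of the 9 omissions, with values between -0.94 and -0.79. It had -0.44 ± 0.12 (adjusted p = 0.0585) in IN@OMVs against Control and 0.40 ± 0.11 (adjusted p = 0.271) in OMVs against Control, both short of the threshold.

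Sod2, the mitochondrial superoxide dismutase gene, was at 155, 134 and 135 CPM in IN@OMVs, 203, 249 and 267 CPM in OMVs, against 197, 207 and 209.7 CPM in Control. Each IN@OMVs library was below each of the other 6, and OMVs 1 lay within the Control range. The change was -0.77 ± 0.10 (adjusted p = 0.00497) against OMVs, called in each of the 9 omissions, with values between -0.87 and -0.68. Against Control it was -0.54 ± 0.10 (adjusted p = 0.0155), a call that ended without IN@OMVs 2, IN@OMVs 3, Control 2 or Control 3 (adjusted p 0.0541 to 0.0749).

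Bcl2l1, which encodes the survival protein Bcl-xL, was at 182, 149.9 and 145 CPM in IN@OMVs, 103, 117 and 131 CPM in OMVs, against 121, 114 and 116 CPM in Control. Each IN@OMVs library was above each of the other 6. Bcl2l1 rose in IN@OMVs against Control with 0.44 ± 0.11 (adjusted p = 0.0425), and 0.44 ± 0.11 against OMVs missed (adjusted p = 0.0693). With the replicate number as a block the adjusted p against Control was 0.0888. The call also ended without IN@OMVs 2, IN@OMVs 3, OMVs 2, Control 1, Control 2 or Control 3 (adjusted p 0.0572 to 0.160).

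The other survival targets passed in none of the 3 comparisons of the edgeR fit to all 9 libraries. Gadd45b, a stress-inducible gene, averaged 29.7 ± 4.85 CPM in IN@OMVs, 37.8 ± 2.29 CPM in OMVs and 31.0 ± 4.78 CPM in Control (SD, n = 3 each), with each IN@OMVs library below each OMVs library. Cflar, which blocks caspase activation at death receptors, averaged 167 ± 9.72 CPM in IN@OMVs, 189 ± 16.4 CPM in OMVs and 169.6 ± 2.67 CPM in Control, with fractional counts in 7 of the 9 libraries.

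**Figure D4:**
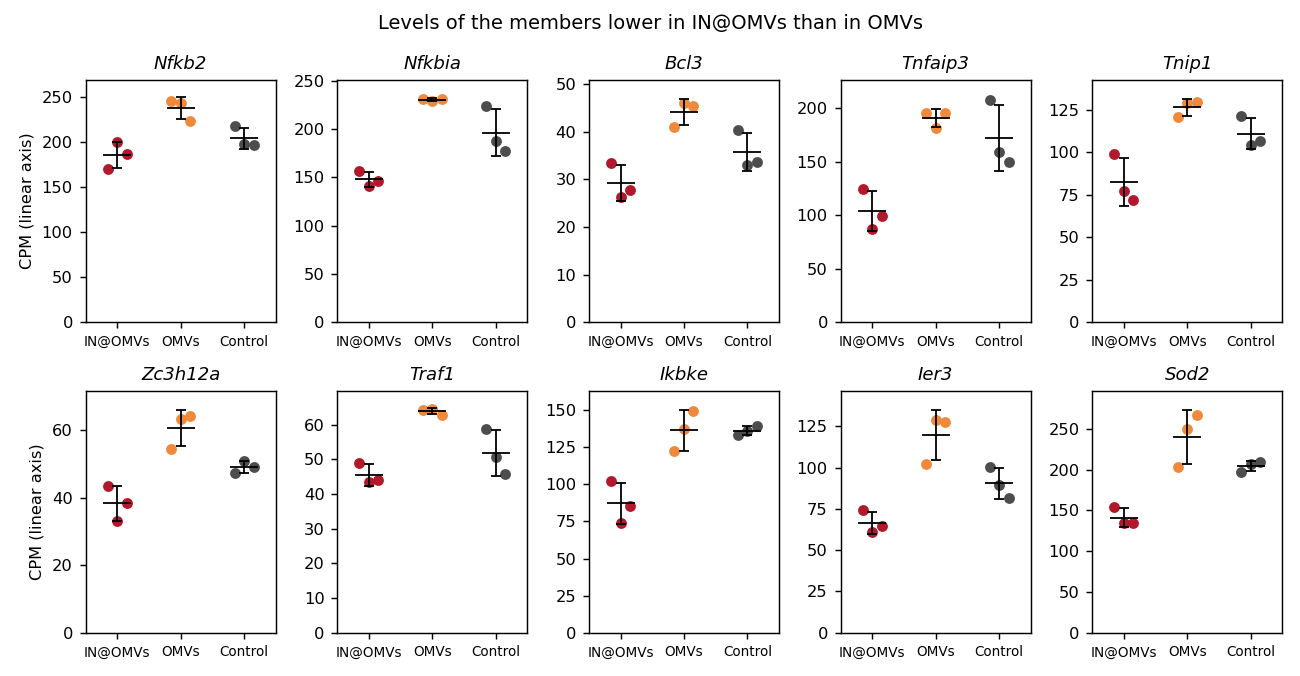
CPM of the 10 genes lower in IN@OMVs than in OMVs, 1 point per library, with the mean (wide dash) and SD (bars, n = 3) of IN@OMVs, OMVs and Control. In each panel the IN@OMVs points lie below the OMVs points, which for Nfkbia sit between 229 and 231 CPM.

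The last 4 targets did not pass in the edgeR fit to all 9 libraries either. Icam1, the adhesion ligand of leukocyte integrins, averaged 144 ± 28.6 CPM in IN@OMVs, 134 ± 14.6 CPM in OMVs and 108 ± 8.17 CPM in Control (SD, n = 3 each). Its Control libraries were below all 6 others, and its difference in IN@OMVs against Control was 0.41 ± 0.14 (adjusted p = 0.123). Tnfaip2, a TNF-inducible gene, averaged 273 ± 13.5 CPM in IN@OMVs, 296 ± 18.04 CPM in OMVs and 243 ± 13.6 CPM in Control, and its 0.29 ± 0.07 (adjusted p = 0.182) in OMVs against Control was the smallest p of the 33 there. Cd83, a surface protein of maturing dendritic cells that is also found on macrophages, averaged 46.5 ± 6.82 CPM in IN@OMVs, 34.5 ± 8.24 CPM in OMVs and 36.9 ± 3.46 CPM in Control. Marcksl1, an actin-regulating gene that lipopolysaccharide induces in mouse macrophages, averaged 129.9 ± 23.9 CPM in IN@OMVs, 169 ± 20.01 CPM in OMVs and 150.2 ± 4.11 CPM in Control.

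In OMVs against Control the differences were small and mostly positive: 29 of the 33 log2 fold changes were above 0, the largest 0.40 (Ier3) and the lowest -0.14 (Nfkbiz). The groups did not overlap for 14 genes with OMVs higher and 1 with OMVs lower (Nfkbiz), where 9.89% of all genes were without overlap in each direction. With 3 libraries a group, an exact permutation test of 1 gene cannot go below 0.1 (two-sided), so non-overlap is given as a description. The adjusted p of the 33 ran from 0.182 to 1.00 in edgeR, and DESeq2 called Tnfaip2. Summed neutrophil markers stood at 564 to 749 CPM in OMVs and 789 to 1159 CPM in Control, below it in each library, and their part in the differences of the 33 genes was not tested.

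In IN@OMVs against OMVs the groups did not overlap for 15 genes with IN@OMVs lower and 1 with IN@OMVs higher (Bcl2l1), beside 8.72% and 8.86% of all genes. In IN@OMVs against Control these were 8 genes lower and 6 higher, beside 12.5% and 13.3% of all genes. The median log2 fold change of the neutrophil markers was -3.11 in IN@OMVs against OMVs and -3.44 against Control, and their part in the falls of the 33 genes was not tested. S100a8, a neutrophil and monocyte calcium-binding protein gene, was at 20.1, 13.6 and 14.5 CPM in IN@OMVs, 149.8, 119 and 163 CPM in OMVs, against 262, 196 and 191 CPM in Control.

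Of 35 receptors, adaptors and kinases upstream of NF-kB, 3 fell and 1 rose in IN@OMVs against OMVs, where 1.75% of all genes were lower and 1.1% higher. Against Control 4 fell and 1 rose, beside 3.24% and 3.32% of all genes, and 0 passed in OMVs against Control, beside 0.42% of all genes (edgeR, by the same threshold). The medians of the list in these 3 comparisons were 0.012, -0.0013 and 0.00031. Cd14, the co-receptor that passes lipopolysaccharide to Toll-like receptor 4, was at 406, 321 and 322 CPM in IN@OMVs, 559, 696 and 739.7 CPM in OMVs, against 762, 698 and 739 CPM in Control, a change of -0.93 ± 0.12 (adjusted p = 0.00497) against OMVs. Irak3, a kinase-dead brake of Toll-like receptor signalling, fell against OMVs with -0.80 ± 0.13 (adjusted p = 0.0149). Tnfrsf1b, the second TNF receptor gene, fell with -0.42 ± 0.09 (adjusted p = 0.0437), and Ikbkg, the regulatory subunit of the IkB kinase complex, rose with 0.32 ± 0.07 (adjusted p = 0.0465). Against Control, Cd14 and Irak3 fell with -1.07 ± 0.12 and -0.90 ± 0.13, the TAK1-binding protein gene Tab3 fell with -0.37 ± 0.08 (adjusted p = 0.0250), and the receptor gene Cd40 rose with 1.01 ± 0.17 (adjusted p = 0.00856).

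Of 32 inflammatory NF-kB targets outside the 33, 31 were tested. Among them 17 fell and 1 rose in IN@OMVs against OMVs (median -0.87), beside 1.75% lower and 1.1% higher over all genes. Against Control 15 fell and 1 rose (median -0.77), beside 3.24% and 3.32%, and in OMVs against Control 2 rose (median 0.10), beside 0.298% higher. This list was not tested against the 33. The acute phase gene Saa3 was at 4.37, 6.84 and 7.28 CPM in IN@OMVs, 359.9, 410.4 and 534 CPM in OMVs, against 442, 572 and 598 CPM in Control, and Lcn2, the siderophore-binding lipocalin gene, was at 8.99, 6.56 and 6.64 CPM in IN@OMVs, 101, 75.0 and 103 CPM in OMVs, against 137, 116 and 112 CPM in Control. Both were lower in each IN@OMVs library than in each of the other 6. Csf3, the granulocyte growth factor gene, was at 0.554, 0.798 and 0.64 CPM in IN@OMVs, 7.47, 11.1 and 11.1 CPM in OMVs, against 5.19, 4.91 and 6.68 CPM in Control. It fell by 3.88 on the log2 scale against OMVs (adjusted p = 0.000164) and fell by 3.06 against Control (adjusted p = 0.000231). Cxcl1, a neutrophil attractant gene, fell in IN@OMVs against OMVs with -2.82 ± 0.22 (adjusted p = 0.000508) and rose in OMVs against Control with 1.29 ± 0.20 (adjusted p = 0.0400). The 1 gene that rose in each of the 3 comparisons was Irf1, which interferons also induce. Irf1 was at 321, 275 and 303 CPM in IN@OMVs, 217, 230.2 and 224 CPM in OMVs, against 171, 146 and 156 CPM in Control. Several of these 32 genes, such as Lcn2, are also made by neutrophils, whose markers fell in the same libraries, and the part of those cells in these falls was not tested.

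IN@OMVs 1 had the highest of the 3 IN@OMVs values for 29 of the 33 genes, beside 46.4% of all genes, and IN@OMVs 2 the lowest for 23, beside 35.3%. Control 1 was the highest of Control for 25, beside 38.2% of all genes. In OMVs the highest value was in OMVs 1 for 7 genes, in OMVs 2 for 8 and in OMVs 3 for 18, beside 31.7%, 30.4% and 37.8% of all genes. The median coefficient of variation between libraries over the 33 genes was 12.4% between IN@OMVs libraries, 6.09% between OMVs libraries and 5.25% between Control libraries. It was smallest for Nfkbia in OMVs, at 0.628%, and largest for Cd83 in OMVs, at 23.9%.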

How the data were processed

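RNA of 9 libraries had been extracted with Trizol and prepared with oligo-dT beads, per the labels' protocols. The authors deposited expected counts per gene symbol (estimated read counts, not normalised), a unit settled from the values: 88.8% to 89.6% of a library's values were whole. Per the submitters' processing notes BWA, Bowtie2 and RSEM were used, with the builds mm9 and hg19 named but not assigned, so the files give no coordinates. Which step made the table is not stated. RSEM-type counts split reads shared between sequences.

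Counts were rounded and fitted with edgeR 4.0.16 (R 4.3.3): TMM factors, filterByExpr, 1 mean per group over all 9 libraries, quasi-likelihood tests of the 3 contrasts, Benjamini-Hochberg adjustment over 13090 genes, threshold 0.05. The common dispersion was 0.0172 and the fit left 6 residual degrees of freedom. Differences are log2 fold changes with the SE of the fit, and CPM used the TMM-scaled library sizes. The steps were tested on simulated data. Alternatives were RLE factors, no filter, DESeq2 1.42.0, limma-voom 3.58.1, the 2 groups alone, a replicate block, each library left out, and the 3 libraries numbered 1 left out.

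What the replicate numbers stand for is unstated. Deviations from the group means correlated at 0.53, 0.37 and 0.12 between libraries of the same number for OMVs and Control, and at 0.45, 0.31 and 0.15 for IN@OMVs and Control. Libraries of different numbers reached 0.35 (OMVs 2 and Control 3) and 0.36 (IN@OMVs 2 and Control 3). Control 1 correlated at -0.49 to -0.13 with the OMVs and IN@OMVs libraries of other numbers. These values set the libraries numbered 1 apart and do not settle a pairing of the others. Pairs with Control would also pair IN@OMVs with OMVs, where libraries of the same number correlated at 0.07, 0.51 and -0.37. There IN@OMVs 1 correlated with OMVs 3 at 0.44. The replicate number was therefore left out of the main fit and tried as a block.

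The 33 genes and the other lists were chosen with earlier results of these data known. Values per library are given for each of the 33 that passed in at least 1 comparison and for all subunits and classical inhibitors. Up to 4 genes with the smallest p are named from each other pathway list, the remaining members are given as means, and genes named for their coefficient of variation were chosen after values were seen. Promoters are RefSeq's (GRCm38.p6).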

Additional observations from a re-analysis of the deposited data

How the results depend on the processing

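No called member changed direction under any of the alternatives run, and Nfkbia, Ier3 and Sod2 in IN@OMVs against OMVs were called under all of them. With single libraries left out in turn, members past the threshold numbered 3 to 17 for IN@OMVs against OMVs, 0 to 13 for IN@OMVs against Control and 0 to 1 for OMVs against Control. Their median log2 fold change ran from -0.33 to -0.15, from -0.20 to 0.010 and from 0.12 to 0.19 in the same comparisons, and all genes called numbered 180 to 786, 393 to 1635 and 0 to 266 (373, 858 and 55 with all 9 libraries). Without the 3 libraries numbered 1 the members called were 19, 15 and 11, all genes called 844, 1475 and 313, and the median for IN@OMVs against Control -0.14. Fitting only the 2 groups compared gave 7 members for IN@OMVs against OMVs, 2 for IN@OMVs against Control and 1 (Nfkbie) for OMVs against Control, and 195, 519 and 115 genes. DESeq2 called 14 members for IN@OMVs against OMVs, 9 for IN@OMVs against Control and 1 for OMVs against Control, with 646 and 207 genes in the first and last of these, and limma-voom called 36 genes in OMVs against Control. RLE factors, no filter and limma-voom gave 10 or 11 members for IN@OMVs against OMVs, 6 for IN@OMVs against Control and 0 for OMVs against Control. The cause of these moves was not tested.

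With the replicate number as a block, 20 genes and 0 members passed in OMVs against Control. In IN@OMVs against Control 5 members and 673 genes passed, and Bcl2l1 was lost. In IN@OMVs against OMVs 9 members and 306 genes passed, and Nfkb2 was lost with an adjusted p of 0.0796. The block changed no other call among the members. Small uncalled differences changed sign when 1 library was left out. For OMVs against Control, Rel ran from -0.038 to 0.045, Rela from -0.063 to 0.0046 and Nfkbib from -0.0060 to 0.069 (log2). For IN@OMVs against Control, Nfkbib ran from -0.16 to 0.092, Nfkb1 from -0.10 to 0.033 and Nfkbie from -0.15 to 0.010. Nfkbib in IN@OMVs against OMVs ran from -0.19 to 0.056. Nfkbib in IN@OMVs against Control was also -0.0071 with limma-voom and -0.12 without the 3 libraries numbered 1.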
